A study of Mus musculus with 6 samples.

Results

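The genes described here are 9 genes of B cells and of the lymphoid follicle, Cd79a, Cd79b, Blk, Ms4a1, Cd22, Pax5, Cr2, Fcer2a and Cxcr5. They were chosen by name as markers of lymphoid tissue, with earlier results of these data known. Each was matched to its row among the 43280 rows of the unfiltered count table. RNA was sequenced from adult submandibular glands (SMGs) of female mice in 6 libraries, 3 labelled WT and 3 labelled DKO. DKO stands for double knockout, with germline alleles that inactivate both Hs3st3a1, by a small frameshift deletion placed in exon 1 with a zinc finger nuclease, and Hs3st3b1, by a LacZ cassette. The WT mice were littermates. The nuclease was injected into heterozygous embryos of the Hs3st3b1 knockout line, which was on a C57BL/6 background, and founders were bred with wildtype mice. The exact age of the mice and the founder behind the DKO libraries are not given in the sources used here. Libraries are called WT 1, WT 4, WT 5, DKO 1, DKO 4 and DKO 5 after their labels, and values are given in that order.

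B cells carry an antibody on their surface as the B cell receptor, which signals through the paired subunits encoded by Cd79a and Cd79b. Naive B cells recirculate between blood and lymph nodes, where they enter through high endothelial venules and gather into follicles along a gradient of the chemokine CXCL13. A salivary gland holds mainly plasma cells that secrete IgA, together with scattered lymphocytes, and the lymph nodes of the neck lie directly against the SMG. The question put to the 9 genes was whether single libraries carried more B cell RNA than others.

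Depth was similar across the 6 libraries, from 23674258 to 29611975 counts, so that 3 counts, the limit that a count of 0 allows, correspond to between 0.101 and 0.127 CPM, the count scaled to the total of its library. This limit covers counting error only. The targeted genes did not separate the labels. Hs3st3b1 had 173, 203 and 261 counts under the WT label and 255, 120 and 189 under the DKO label (DESeq2 adjusted p = 0.976), and Hs3st3a1 had between 8 and 15 counts in every library (DESeq2 adjusted p = 0.947). Counts per gene cannot show a small deletion or where in a gene the reads lie. Groups are named by their labels, and every direction rests on them. The epithelial markers Aqp5, Epcam and Krt18 had at least 3795 counts in every library.

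The promoters that RefSeq lists for the members were read as a description of sequence. Whether the members share transcriptional control was not tested. A window was found for 5 of the 9 genes, Cd22, Cr2, Cd79a, Pax5 and Fcer2a, in build GRCm38.p6. The 250 bases before each start were searched on both strands for the octamer ATGCAAAT, a site of the POU factors of B cells, and for TCCC and GGGA with 2 bases between them, the core of the early B cell factor site, which reads the same on both strands. The window of Cd22 held the second motif, with its first base 49 bases before the listed start, and 0 of the other windows held either. This Cd22 window lies inside the annotated span of the gene given below, not upstream of it. Of its 250 bases, 102 are in annotated exons of Cd22. Over all 32817 windows of the same length, 1.60% held the octamer and 0.780% the early B cell factor core. The bases of the Cd22 window outside annotated exons of that gene (chr7:30879029-30879176, minus strand) are shown because Cd22 had the lowest p-value of the 9 genes, with the motif in capitals, and the window of Cr2 (chr1:195176720-195176969, minus strand) because Cr2 followed the other members least.
Cd22: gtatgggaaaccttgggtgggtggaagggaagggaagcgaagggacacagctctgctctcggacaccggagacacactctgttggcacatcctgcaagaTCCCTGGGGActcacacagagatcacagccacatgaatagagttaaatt
Cr2: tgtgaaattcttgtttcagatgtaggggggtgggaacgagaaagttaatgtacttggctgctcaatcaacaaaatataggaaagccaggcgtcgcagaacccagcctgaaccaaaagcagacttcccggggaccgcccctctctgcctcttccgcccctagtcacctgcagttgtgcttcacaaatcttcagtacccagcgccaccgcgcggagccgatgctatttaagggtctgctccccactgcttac
A match describes letters in a window and not a bound site.

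The B cell receptor genes were counted under both labels at low levels. Cd79b (chromosome 11, 106311341 to 106314762, minus strand), the beta signalling subunit, had 41, 7 and 21 counts in WT 1, WT 4 and WT 5 and 7, 4 and 3 in DKO 1, DKO 4 and DKO 5. Cd79a (chromosome 7, 24897381 to 24902197, plus strand), the alpha subunit, had 18, 5 and 9 counts against 4, 2 and 0. For both subunits WT 1 was the highest library and WT 4 the lowest of its group, and WT 4 lay just above the highest DKO-labelled library. In normalized counts, the counts divided by the size factor of each library, Cd79b stood at 6.85 in WT 4 and 6.64 in DKO 1, and Cd79a at 4.89 and 3.80. Blk (chromosome 14, 63372836 to 63417037, minus strand), a Src family kinase that acts below the receptor, had 14, 2 and 3 counts against 1, 2 and 0. Its groups overlapped, since WT 4 and DKO 4 had 2 counts each.

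The surface regulators Cd22 and Ms4a1 were concentrated in WT 1. Cd22 (chromosome 7, 30865402 to 30880342, minus strand), an inhibitory co-receptor that binds sialic acids, had 70, 6 and 25 counts in the WT-labelled libraries and 5, 3 and 1 in the DKO-labelled ones. The groups did not overlap, but WT 4 and DKO 1 lay close together at 5.87 and 4.74 normalized counts. Ms4a1 (chromosome 19, 11249675 to 11266241, minus strand), which encodes CD20, the standard marker of mature B cells, had 61, 1 and 6 counts against 0, 1 and 1. A single library, WT 1, held 87.1% of all Ms4a1 counts in the series, and WT 4 had no more than the DKO-labelled libraries. Pax5 (chromosome 4, 44524757 to 44710487, minus strand), the transcription factor that fixes B cell identity, had 5, 1 and 0 counts against 0, 0 and 2. With 8 counts in all it fell under the minimum of 10 for the test, and a difference in it was not detectable at this depth.

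The follicle genes Cr2, Fcer2a and Cxcr5 were highest in WT 1 as well, and differed in the other libraries. Cr2 (chromosome 1, 195136811 to 195176716, minus strand), the complement receptor of B cells and follicular dendritic cells, had 42, 13 and 4 counts in the WT-labelled libraries and 1, 1 and 12 in the DKO-labelled ones. In normalized counts DKO 5 (13.8) stood above WT 5 (3.58) and WT 4 (12.7), although the other 8 genes together had 8 counts in DKO 5. Fcer2a (chromosome 8, 3681737 to 3694175, minus strand), the low-affinity IgE receptor of follicular B cells, had 15, 0 and 2 counts against 1, 0 and 1. Outside WT 1 it was at most 2 counts in any library. Cxcr5 (chromosome 9, 44511787 to 44561877, minus strand), the receptor that leads B cells to CXCL13, had 18, 0 and 4 counts against 0, 0 and 0. Its mean level in the WT-labelled libraries was at least 2.27-fold higher than 3 counts per library would give in the DKO-labelled ones (3.15 normalized counts). This bound rests on WT 1, since the mean of WT 4 and WT 5 was 1.79 normalized counts, and WT 4 had 0 counts. The exons of Cxcr5 share 110 bases with Bcl9l on the opposite strand, a gene with 4562 counts in all. The libraries were unstranded, so reads from those bases could not be assigned to a strand.

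**Figure D1:**
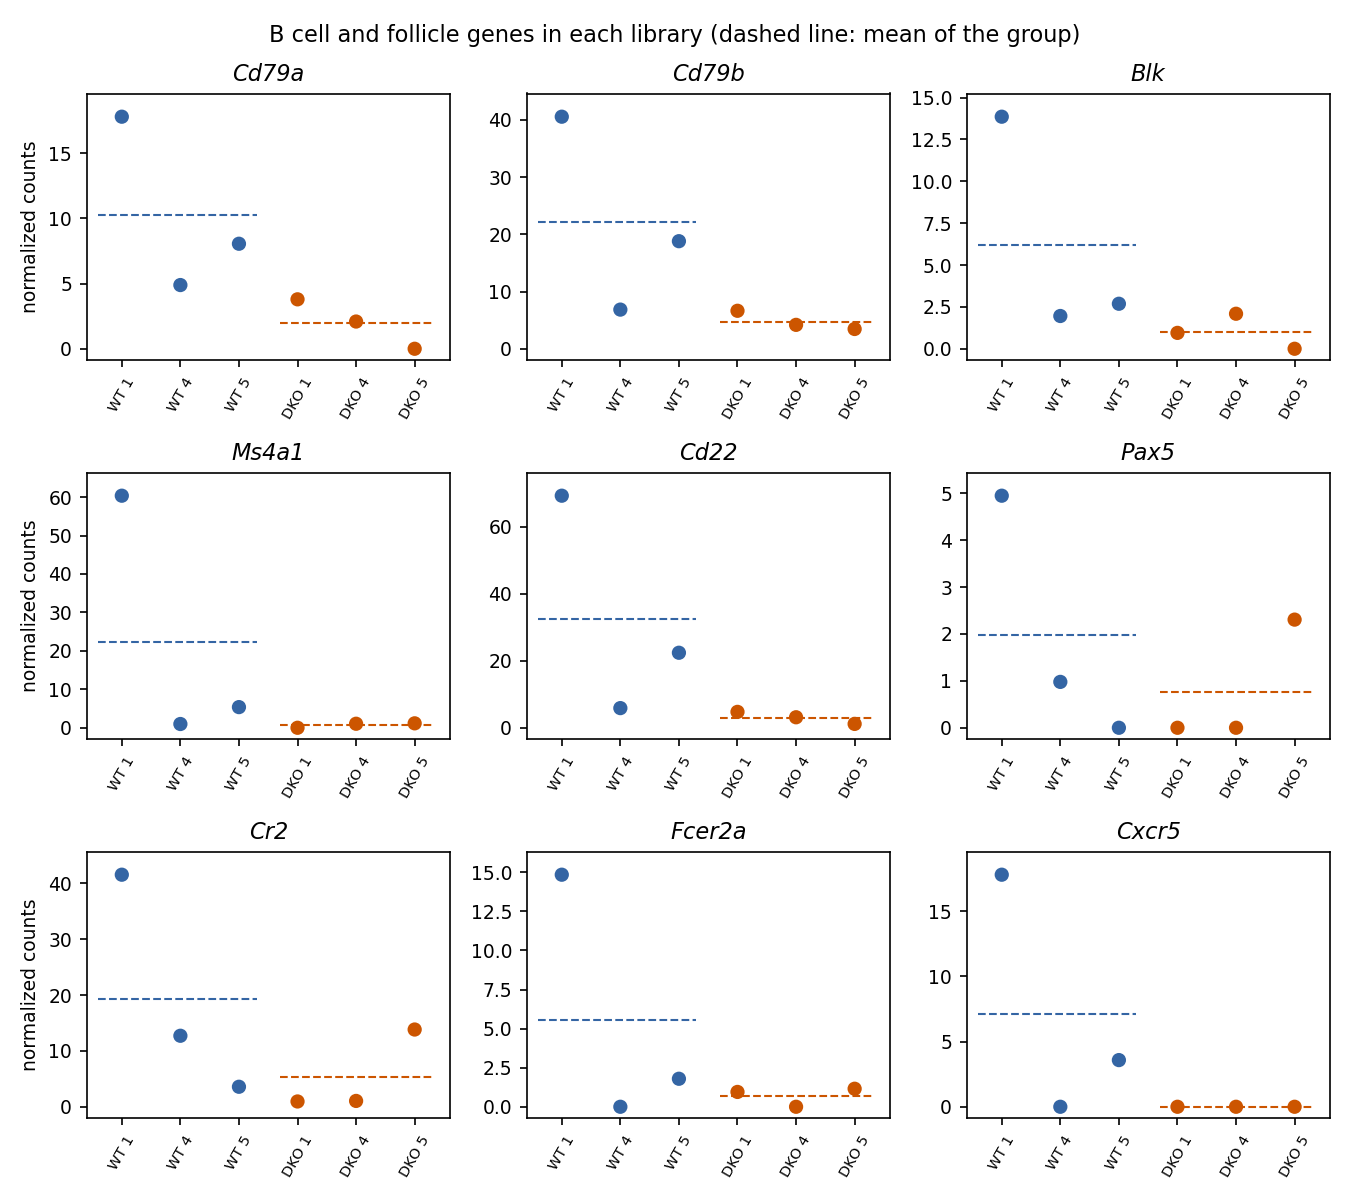
Normalized counts (vertical axes, 1 scale per gene) of the 9 B cell and follicle genes in each library (horizontal axes), with dashed lines at the mean of the 3 libraries of each group. WT 1 (blue, left) is the highest point in all 9 panels, and in Cr2 and Pax5 the point of DKO 5 (orange, right) is above that of WT 5.

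Summed over the 9 genes, the library WT 1 stood apart. It had 284 counts, or 12.0 CPM (95% exact binomial interval 10.6 to 13.5), against 35 counts (1.30 CPM, 0.904 to 1.80) in WT 4 and 74 (2.71 CPM, 2.13 to 3.40) in WT 5. DKO 1, DKO 4 and DKO 5 had 19 counts (0.672 CPM, 0.405 to 1.05), 13 (0.439 CPM, 0.234 to 0.751) and 20 (0.774 CPM, 0.473 to 1.20). These intervals cover counting error only. By them WT 1 lay above WT 5, WT 5 above WT 4, and the 3 DKO-labelled libraries could not be ordered, while the interval of WT 4 overlapped those of DKO 1 and DKO 5. All 9 genes were highest in WT 1, whereas 18.2% of all rows tested were. The genes were chosen with earlier results of these data known, so this count is a description and not a test. The level of single genes in WT 1 was from 2.75 times (Cd79a) to 19.0 times (Ms4a1) the mean of WT 4 and WT 5. In WT 5, 7 of the 9 genes were above every DKO-labelled library, and in WT 4 3 were. The share of all rows for these counts was not computed, so they describe the members alone.

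The groups were compared with DESeq2 fitted on all 18606 rows with at least 10 counts, with log2 fold changes given as DKO over WT and an adjusted p-value under 0.05 as the threshold. Of the 9 genes 8 were tested, 5 received an adjusted p-value, and 2, Ms4a1 and Cd22, were lower in the DKO-labelled libraries. Over all rows tested 1.88% were called lower and 1.02% higher. Cd22 fell from 32.5 ± 32.9 to 3.01 ± 1.80 normalized counts (mean ± SD, n = 3 and 3), a log2 fold change of -3.41 with an SE of 0.89 (DESeq2 adjusted p = 0.00871). Ms4a1 fell from 22.2 ± 33.1 to 0.733 ± 0.637, a log2 fold change of -4.97 with an SE of 1.47 (DESeq2 adjusted p = 0.0295). For both genes the SD of the WT-labelled libraries was as large as their mean. With 2 counts of Ms4a1 in all DKO-labelled libraries, the ratio of its summed counts was 31.1, with a counting interval from 8.28 to 262. This interval pools the libraries of each group and leaves out the spread between libraries.

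Neither call held without the library WT 1. In that fit Cd22 had a log2 fold change of -2.21 with an SE of 1.05 (DESeq2 adjusted p = 0.519), Ms4a1 had too few counts to be tested, and 0 of the 4 genes tested were called, with 1 at an unadjusted p-value under 0.05. Of all rows in that fit 0.522% were called lower. Cd22 also lost its call without WT 5 (DESeq2 adjusted p = 0.066), DKO 4 (0.102) or DKO 5 (0.123), and Ms4a1 without WT 5 (0.07), DKO 1 (0.108), DKO 4 (0.367) or DKO 5 (0.397). Without WT 4, 4 genes were called, Ms4a1, Cd22, Cd79b and Cxcr5. With all 6 libraries edgeR called 0 of the 8 genes, where it called 0.0269% of all rows lower. The limma-voom test called 0, where it called 0.0215% of all rows lower. At an unadjusted p-value under 0.05 edgeR had 6 of the 8 and limma-voom 2. The share of all rows at that unadjusted threshold was not counted, here or for the lists below. Such counts therefore have no background beside them.

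The other 6 genes tested did not pass the threshold. Cd79b had 22.1 ± 17.1 against 4.76 ± 1.67 normalized counts and a log2 fold change of -2.20 with an SE of 0.78 (DESeq2 adjusted p = 0.0909). Cd79a had 10.3 ± 6.73 against 1.96 ± 1.90 and a log2 fold change of -2.34 with an SE of 1.07 (DESeq2 adjusted p = 0.268), and Cr2 had 19.3 ± 19.8 against 5.28 ± 7.41 and -1.90 (SE 1.03, DESeq2 adjusted p = 0.411). Blk (-2.58, SE 1.44), Fcer2a (-2.99, SE 1.77) and Cxcr5 (-5.21, SE 3.90) had unadjusted p-values from 0.0725 to 0.182 and, at their low mean counts, no adjusted p-value from DESeq2. The summed counts of Fcer2a, with 2 counts in the DKO-labelled libraries, had a WT over DKO ratio of 7.77 (counting interval 1.84 to 69.3). Those of Blk, with 3, had a ratio of 5.79 (1.70 to 30.5), and those of Pax5, with 2, a ratio of 2.74 (0.490 to 27.8). These intervals pool the libraries of each group and leave out the spread between libraries, so they are no test of the groups.

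All 8 values were negative, with a median of -2.78 where the median of all rows tested was 0.00. Without WT 1 the median of the 4 genes tested, Cd79a, Cd79b, Cd22 and Cr2, was -1.56. The 2 medians cover different sets of genes. The values of these 4 genes ran from -3.41 to -1.90 with all 6 libraries and from -2.21 to -0.64 without WT 1. The groups did not overlap for 3 genes, Cd79a, Cd79b and Cd22, as for 10.5% of all rows tested in this direction. The summed level of the 9 genes was 127 ± 134 normalized counts in the WT-labelled libraries and 18.2 ± 4.74 in the DKO-labelled ones, a ratio of 6.98 that became 2.76 without WT 1. In bulk RNA, fewer cells of a type and less RNA per cell cannot be told apart.

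**Figure D2:**
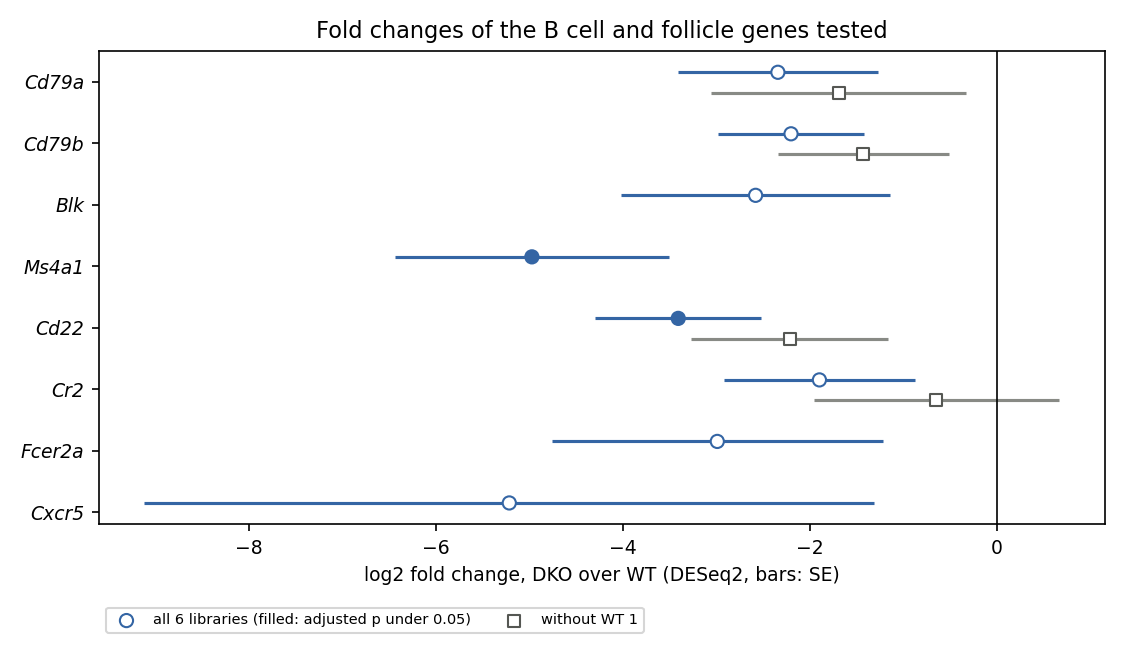
Log2 fold change (horizontal axis, DKO over WT) of the 8 genes tested by DESeq2, with bars of 1 SE, for all 6 libraries (circles, filled where the adjusted p-value was under 0.05) and without WT 1 (squares, 4 genes). Ms4a1 and Cd22 are filled, and without WT 1 the 4 remaining values lie closer to 0, from -2.21 to -0.64.

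Levels were compared between genes per kilobase (kb) of annotated exon. Over the WT-labelled libraries, Cd79b was highest with a level of 15.4 normalized counts per kb, followed by Cd79a with 7.04 and Cd22 with 6.45. Ms4a1 followed with 3.59, Cr2 with 2.38, Blk with 2.29, Cxcr5 with 2.14 and Fcer2a with 1.79, and Pax5 was lowest with 0.223. In the DKO-labelled libraries, Cd79b had a level of 3.33 per kb and Cd79a of 1.35, and no other gene exceeded 0.650. Each difference between neighbours in the WT order was smaller than the SD of the higher gene, per kb, between WT-labelled libraries. The order below Cd22 also rested on WT 1. Without it the WT levels were 8.96 per kb for Cd79b, 4.44 for Cd79a, 2.80 for Cd22, 0.861 for Blk, 0.538 for Cxcr5, 0.513 for Ms4a1, 0.290 for Fcer2a and 0.0552 for Pax5, with Cr2 between Cd22 and Blk.

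Across the 6 libraries the log2 levels of the 8 genes with at least 10 counts moved together, with Pearson r between pairs from 0.28 to 0.99 and a median of 0.87 over 28 pairs. These values describe 6 libraries that share depth and sample composition. Every member was highest in WT 1, and r was not computed without that library. Cxcr5 (r = 0.97), Cd79b (0.96), Cd22 (0.95) and Ms4a1 (0.95) followed the mean of the other members most closely, and Cr2 (0.55) least. Among 13323 other rows with a mean of at least 20 normalized counts, the 8 most like the members included Zmynd15, Gbp6, Enah, Spi1, Fmnl1, Igtp and Xaf1, with r from 0.994 to 0.998 over 6 libraries, and 377 rows had r over 0.90. Igtp and Gbp6 encode interferon-inducible GTPases, and Igtp had 1367, 157 and 357 counts under the WT label and 102, 118 and 75 under the DKO label (DESeq2 adjusted p = 0.0762). Gbp6 had 1149, 147 and 346 counts against 123, 83 and 70 (DESeq2 adjusted p = 0.0760). These rows were picked for their likeness to the members, so the order of libraries they share with them follows from that choice.

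A further 16 genes of the B lineage were followed, of which 15 were tested. Spib, Cd37 and H2-Ob were lower in the DKO-labelled libraries, 0 were higher, and the median log2 fold change was -1.13. Spib, a transcription factor of B cells and plasmacytoid dendritic cells, had 35, 6 and 11 counts against 2, 1 and 2 (log2 fold change -3.27, SE 1.02, DESeq2 adjusted p = 0.0434). Cd37, a tetraspanin of B cells, had 70, 25 and 41 counts against 10, 18 and 6 (-1.88, SE 0.55, DESeq2 adjusted p = 0.0254). H2-Ob, a chaperone subunit of the class II pathway in B cells, had 76, 16 and 38 against 9, 14 and 5 (-2.10, SE 0.62, DESeq2 adjusted p = 0.0296). Without WT 1 0 genes of this list were called, with 1 at an unadjusted p-value under 0.05, and 12 of the 16 genes were highest in WT 1.

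The signalling genes below the receptor, most of which other leukocytes and the epithelium also use, were followed in the same way. Of 15 tested, Pik3cd, the leukocyte isoform of phosphoinositide 3-kinase, was lower (240, 110 and 186 counts against 91, 63 and 69, log2 fold change -1.14, SE 0.29, DESeq2 adjusted p = 0.00684), 0 were higher and the median was -0.70. Without WT 1 its adjusted p-value was 0.219 and 0 of the 15 were called, with 3 at an unadjusted p-value under 0.05. Of the survival and homing ligands 0 of 5 tested were called, with 1 at an unadjusted p-value under 0.05 in DESeq2 and 2 in edgeR. Of the germinal centre genes 0 of 5 tested were called, with 2 at an unadjusted p-value under 0.05 in each tool.

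Of 7 markers of lymph node stroma and venules, Cxcl13, Ccl21a and Ccl19 were counted in WT 1, and the 4 venule genes had at most 1 count there. Glycam1, a mucin-like product of high endothelial venules, had 1 count in WT 1 and 0 in the other 5 libraries. Chst4, the sulfotransferase of those venules, had 0 counts in all 6 libraries. Madcam1, an addressin, had 1, 1 and 0 counts in the WT-labelled libraries and 1, 0 and 0 in the DKO-labelled ones, and Fut7 had 1, 1 and 1 against 0, 2 and 1. The chemokine Ccl21a, which draws T cells and dendritic cells and shares sequence with near-identical copies, had 19, 9 and 32 counts against 15, 14 and 6, so that WT 5 and not WT 1 was the highest library. Ccl19 had 5, 1 and 2 counts against 1, 0 and 0. Cxcl13, the follicular ligand of CXCR5, had 24, 2 and 9 counts against 4, 2 and 0, the same order of libraries as the members' sum within the group labelled WT (log2 fold change -2.48, SE 1.16, DESeq2 adjusted p = 0.286). Of this list of 7 genes, 2 were tested and 0 were called, with 1 at an unadjusted p-value under 0.05 in DESeq2 and in edgeR. Its summed level was 13.7 to 50.5 normalized counts in the WT-labelled libraries and 8.07 to 19.9 in the DKO-labelled ones, with WT 1 highest at 1.90 times the mean of WT 4 and WT 5, and its part in the values of the B cell genes was not tested.

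Genes of naive lymphocytes were present beside them. Ccr7, the receptor for CCL19 and CCL21, had 29, 7 and 10 counts under the WT label and 7, 2 and 4 under the DKO label (DESeq2 adjusted p = 0.328), and S1pr1, which lymphocytes and endothelium use, had 140, 118 and 167 against 89, 100 and 87 (0.274). Lta had 9, 1 and 0 counts against 0, 0 and 0. Ltb, the lymphotoxin subunit of B and T cells, had 68, 21 and 40 counts against 9, 7 and 5 and was lower in the DKO-labelled libraries (log2 fold change -2.51, SE 0.59, DESeq2 adjusted p = 0.00247). It lost its call without WT 1 (0.164).

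Several other immune lists, but not all, were also high in WT 1, and their part in the values of the B cell genes was not tested. The summed level of 12 T cell genes was 555, 137 and 285 normalized counts in WT 1, WT 4 and WT 5 and 76.9, 53.3 and 50.7 in the DKO-labelled ones, with all 12 genes highest in WT 1. Cd3d, Cd3g, Cd4, Cd8a, Cd8b1, Lck and Il7r were lower in the DKO-labelled libraries, 7 of 12, with a median of -2.90, and without WT 1 Cd8a was (DESeq2 adjusted p = 0.00891). In WT 1 the T cell list stood at 2.63 times the mean of WT 4 and WT 5, the B cell and follicle genes at 5.59 times, the lymph node list at 1.90 times, leukocyte genes in general at 1.83 times, macrophage genes at 1.22 times and the epithelial list at 0.981 times. On the same scale the germinal centre list stood at 0.971 times and the survival and homing ligands at 0.864 times. The macrophage sum was highest in WT 5. WT over DKO, the T cell list had a ratio of 5.40 and, without WT 1, of 3.50.

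**Figure D3:**
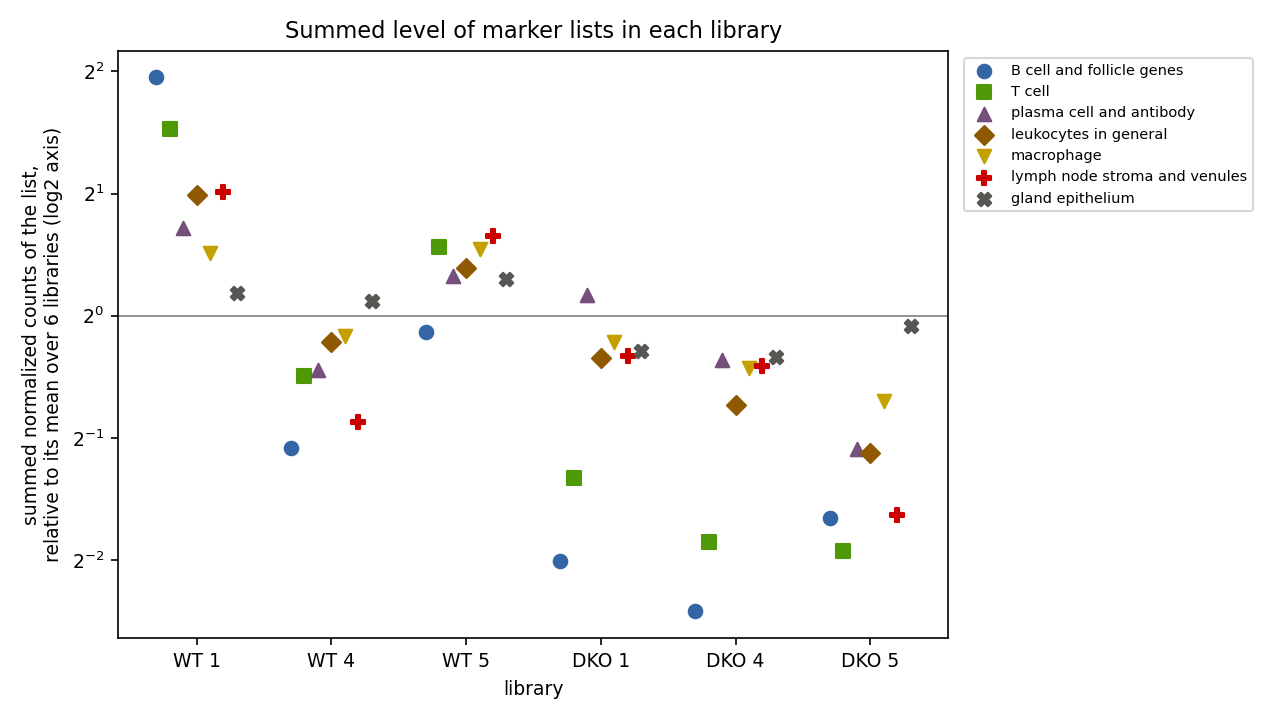
Summed normalized counts of 7 marker lists in each library (horizontal axis), divided by the mean of that list over the 6 libraries (vertical axis, log2 scale). WT 1 has the highest B cell and T cell points, and the DKO-labelled libraries have the lowest. The epithelial list, of which Egf holds most of the sum, runs from 0.789 (DKO 4) to 1.23 (WT 5). Its WT-labelled points lie above its DKO-labelled ones.

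Of the antibody genes, those for IgM and IgG were lower under the DKO label. Ighm, which B cells and early plasma cells express, had 2166, 198 and 1790 counts in the WT-labelled libraries and 80, 66 and 63 in the DKO-labelled ones (log2 fold change -4.18, SE 0.88, DESeq2 adjusted p = 4.20e-04). WT 5 was close to WT 1 for Ighm, and WT 4 stood above the DKO libraries by less. Ighd, the isotype of naive B cells, had 35, 4 and 14 counts against 6, 4 and 5, the same order as the members' sum within the group labelled WT. Igha, the isotype of salivary plasma cells, had 4789, 2968 and 4696 counts against 5746, 2882 and 907, and DKO 1 was its highest library. Of 15 genes of this list tested, Ighm, Ighg1, Ighg2b, Ighg2c and Ighg3 were lower and Derl3, which secretory cells of the gland also express, was higher, with 14 of 15 values negative. Without WT 1, 1 of them was called lower, Ighm (DESeq2 adjusted p = 0.0343). Constant regions of the IgG subclasses share sequence, so that the count of a single one is uncertain.

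Several antigen-presenting genes, which B cells share with macrophages and dendritic cells, were also lower. Of 9 class II genes H2-Aa, H2-Ab1, Cd74, Ciita and H2-DMb2 were lower, with a median of -1.06, and H2-Aa, H2-Ab1 and Cd74 were lower also without WT 1. H2-DMb2 had 75, 24 and 29 counts against 5, 1 and 9 (log2 fold change -2.96, SE 0.70, DESeq2 adjusted p = 0.00275). Of 6 macrophage genes Mrc1, Emr1 (the gene now named Adgre1), C1qa and C1qb were lower, with a median of -0.75, and of 5 general leukocyte genes Cd52 and Laptm5 were, with a median of -1.18. Without WT 1 the calls in these lists were Mrc1 and Ptprc. Of 5 dendritic cell genes 0 were called, with 2 at an unadjusted p-value under 0.05 in DESeq2 and 2 in edgeR. In the epithelial list Krt14, Acta2 and Egf were lower and Aqp5 was higher, 4 of 8. Of all these lists edgeR and limma-voom called 0 genes. At an unadjusted p-value under 0.05 there were 71 and 56 list genes, with no share of all rows counted beside them.

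**Figure D4:**
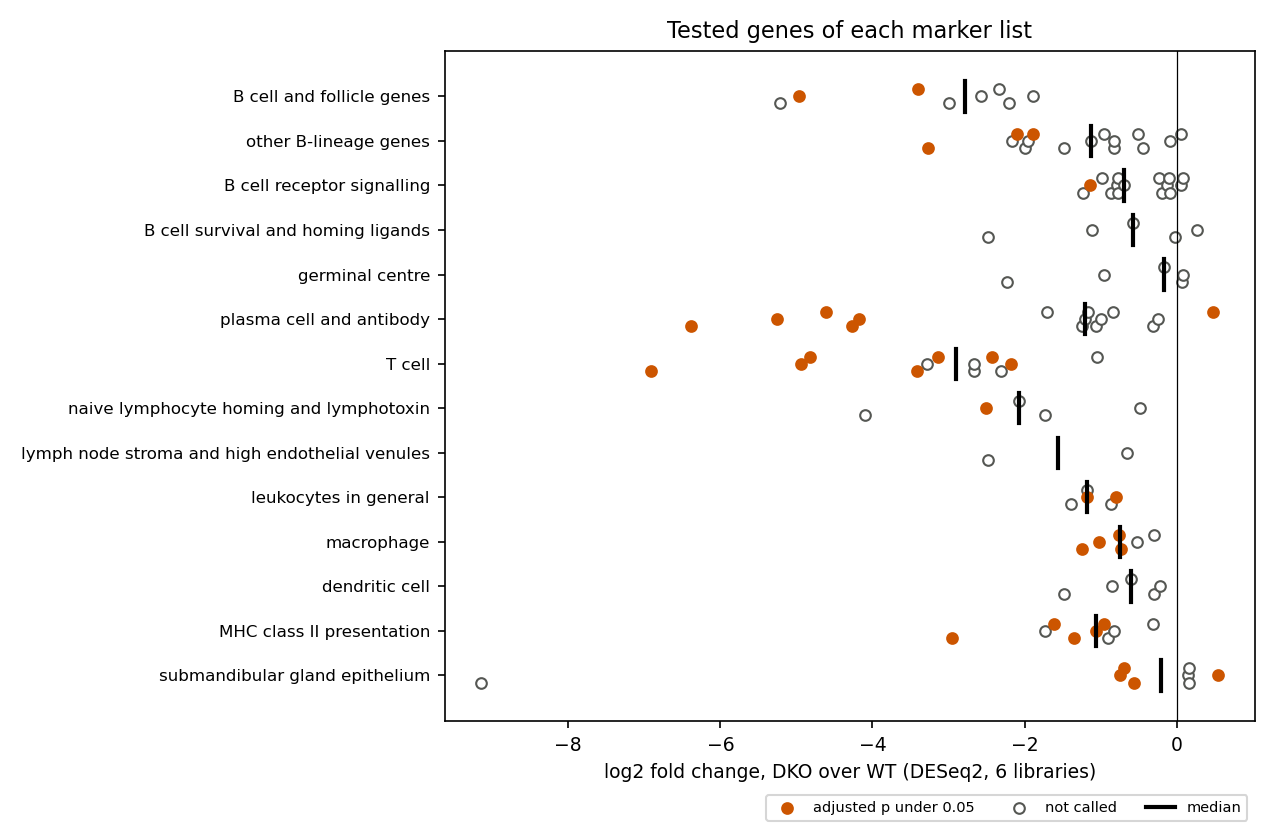
Log2 fold change (horizontal axis, DKO over WT, DESeq2 on 6 libraries) of every tested gene in the 14 marker lists, filled where the adjusted p-value was under 0.05, with a bar at the median of each list. The T cell list has the lowest median (-2.90), followed by the B cell and follicle genes (-2.78), and the epithelial list has its median at -0.20.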

How the data were processed

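Unstranded Nextera XT libraries of 6 glands were sequenced on a HiSeq2500. The table used holds raw counts for each gene symbol, as the authors deposited it before filtering. The submitters' processing notes name STAR 2.5.2a, DESeq2, edgeR and limma and the builds GRCh38, GRCm38 and mm10, and the counting tool and annotation are not given in the sources used here. The deposited filtered counts and TMM-scaled values were not used.

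Rows with at least 10 counts over the 6 libraries (18606 of 43280) were tested with DESeq2, the tool the study names, here version 1.42.0 in R 4.3.3, with its own size factors (0.867 to 1.12), two-sided Wald tests without shrinkage and Benjamini-Hochberg adjustment. Of these, 2556 received no adjusted p-value, 2525 because of a low mean and 31 because of Cook's distance. Alternatives were edgeR 4.0.16 (quasi-likelihood, TMM), limma-voom 3.58.1, other size factors and filters, a replicate block, and leaving out libraries in turn. Libraries of 1 group differed by more than sampling noise (chi-square per degree of freedom 16.8 to 43.4). The sources do not say that the glands came from separate mice, so p-values measure the spread between these samples. With 3 against 3, a permutation test of 1 value cannot go below p = 0.1, so none was made.

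The members and the 14 lists (127 entries, 126 matched to a row) were chosen with earlier results of these data known. Genes named are the members, list genes with an adjusted p-value under 0.05, the lymph node and naive lymphocyte lists, and the 8 rows most like the members in Pearson r of log2(normalized count + 1), of which some are not reported here. Ighd, Igha, Bcl9l and the epithelial markers of the gland check were named beside them after their values were seen. Coordinates and exon lengths are those of GENCODE M21 (GRCm38) for the same symbol. Fcmr, Jchain and Adgre1 were matched through RefSeq synonyms.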

Additional observations from a re-analysis of the deposited data

How the results depend on the processing

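All 109 log2 fold changes of the tested B cell and follicle genes under the alternatives were negative, and calls rather than directions depended on the processing. The 2 members called became 0 under edgeR, under limma-voom, and with at least 10 counts in 3 libraries, a filter that left Cr2 alone to be tested, and 1 with the replicate block (Cd22). With total counts as size factors Cd79b was called as well (DESeq2 adjusted p = 0.0277). Leaving out 1 library gave 0 to 4 members called, a member median of -3.29 to -1.56 and a ratio of their summed level of 2.76 to 9.53. The median of -1.56, without WT 1, covers only the 4 genes tested in that fit. Over all genes, 539 calls became 10 under edgeR, 7 under limma-voom, 343 with the replicate block and 1472 with total counts as size factors, and 149 (without WT 5) to 817 (without WT 4) with 1 library left out. The total counts moved the median of all genes by -0.23 and the split from 189 higher and 350 lower to 62 and 1410. Genes of all lists called lower, 33, became 0 under edgeR, 0 under limma-voom, 51 with total counts as size factors, and 9 to 49 with 1 library left out. That count was added after seeing the data. The causes were not tested. Same-numbered libraries did not deviate together (r = -0.13, -0.02 and -0.26), so the numbers were not taken as pairs. In WT 1, 8 of the 9 genes had at least 10 counts and in every other library at most 2 had, which limits what the tests can show.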

Other observations

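One gene of the epithelial list stood apart in another library. Smr3a, which encodes a submaxillary gland androgen-regulated protein, had 0, 0 and 2830 counts in WT 1, WT 4 and WT 5 and 0, 1 and 3 in DKO 1, DKO 4 and DKO 5, and DESeq2 gave it no p-value by Cook's filter (edgeR adjusted p = 0.218). The library WT 5 was thus set apart by this gene. In the library WT 1 the B cell genes stood highest, as did all 12 genes of the T cell list.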
